A study of Rattus norvegicus with 4 samples.

Results

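The erythroid and hemoglobin genes described here are 9 genes, Hbb, Hba-a1, Hba-a2, Alas2, Ahsp, Epb42, Tfrc, Klf1 and Epor, taken by gene name from the 32883 genes of the count table. All 9 had a row. They were measured by RNA-seq of poly A+ RNA from carotid bodies (CBs) of Sprague Dawley rats, the small organs at the carotid bifurcation that sense blood oxygen. Of the 4 libraries, 2 were from neonates at day 5, each said in the series description to be a pool of 6 pups, and 2 were from adults at day 21, each a pool of 3 rats. The methods of the study give other numbers of animals per pool and of replicates, so what each library stands for is uncertain in this respect. Part of the litter was raised to day 21 for the adult group, both sexes were pooled, and the labels name no treatment and no genetic change. The pools hold whole CBs and not sorted cells. The library totals were 39476110 and 38506468 estimated counts in neonates and 37778975 and 36286191 in adults, so that a floor of 3 counts lies between 0.0760 and 0.0827 CPM (counts per 1000000 counts of the library). This floor covers counting error only. The neonatal libraries stand apart from each other in the hemoglobin chain genes, Alas2, Ahsp and Slc4a1 and in parathyroid genes. The fold changes of the chain genes, Alas2, Ahsp and Slc4a1 are also given without neonate 1. In what follows, rose and fell mean a higher or a lower level in neonates than in adults. The tissue label was checked with glomus cell genes, and the summed level of 8 of them, among them Th, the enzyme that starts catecholamine synthesis, was 6496, 5610, 9219 and 7323 CPM in neonate 1, neonate 2, adult 1 and adult 2.

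Hemoglobin is a tetramer of alpha and beta chains, each holding a heme group that binds oxygen. Red cell precursors make it in the bone marrow and, around birth, in the liver and spleen, under the hormone erythropoietin and transcription factors such as GATA1 and KLF1. They take up iron through the transferrin receptor and build heme along a chain of enzymes that starts with ALAS2. A young red cell that has lost its nucleus, the reticulocyte, still carries such transcripts for some time in the circulation.

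The alpha and beta chain genes carry the largest counts, and the 250 bases before the start of Hbb, Hba-a1 and Hba-a2 are shown because these genes moved together and because the alpha copies are alike in sequence. They are from RefSeq on the build GRCr8, which is not the build of the count table, so that the names of the copies may not correspond exactly. They lie on the minus strand at chr1:167663722-167663971 (Hbb), chr10:15842581-15842830 (Hba-a1) and chr10:15829139-15829388 (Hba-a2). Capitals mark GATAA (the core of the motif of GATA factors), CACCC (the core of the motif of KLF1 and its kin) and CCAAT (the CCAAT box), read on either strand, which do not overlap one another here. A match is only a match of letters.
Hbb: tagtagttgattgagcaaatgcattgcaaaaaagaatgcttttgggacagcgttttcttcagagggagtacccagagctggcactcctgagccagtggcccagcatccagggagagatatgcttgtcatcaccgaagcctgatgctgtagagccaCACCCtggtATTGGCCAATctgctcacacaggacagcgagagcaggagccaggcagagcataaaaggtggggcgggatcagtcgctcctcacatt
Hba-a1: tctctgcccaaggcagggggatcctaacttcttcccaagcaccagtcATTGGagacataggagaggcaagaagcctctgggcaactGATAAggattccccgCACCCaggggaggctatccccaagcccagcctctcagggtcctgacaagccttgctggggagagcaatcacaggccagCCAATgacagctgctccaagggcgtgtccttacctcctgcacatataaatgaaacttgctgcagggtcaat
Hba-a2: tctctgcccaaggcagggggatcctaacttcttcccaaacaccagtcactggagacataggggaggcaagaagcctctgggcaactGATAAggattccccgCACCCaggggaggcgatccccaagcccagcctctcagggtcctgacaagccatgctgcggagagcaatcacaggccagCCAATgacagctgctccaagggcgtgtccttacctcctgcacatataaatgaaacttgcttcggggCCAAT

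The windows of Hba-a1 and Hba-a2 had the same base at 241 of 250 positions (96.4%), while those of Hba-a1 and Hbb, laid side by side without gaps, had the same base at 20.0%. Both alpha windows held 1 GATAA, starting 164 bases before the gene's start, and 1 CACCC, 149 bases before it. The Hbb window held 1 CACCC, 95 bases before the start, next to a CCAAT on each strand, and no GATAA. RefSeq windows were found for 8 of the 9 genes, and GATAA was also in those of Alas2, Klf1 and Epor. The 5 letters are common: of 33469 windows of this length in the table, 23.5% held GATAA, 49.2% CACCC and 34.0% CCAAT.

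All 3 hemoglobin chain genes were higher in neonates than in adults. Hbb, the beta chain, was at 2618 and 1624 CPM in the neonatal libraries and at 841 and 838 CPM in the adult libraries. Hba-a1, an alpha chain gene, was at 5308 and 3159 CPM against 1457 and 1252 CPM. Hba-a2, the second alpha copy, was at 3654 and 2043 CPM against 723 and 582 CPM. The lower neonatal library lay above both adult libraries for each gene, and neonate 1 lay well above neonate 2. In edgeR's quasi-likelihood test on counts normalized by the trimmed mean of M values (TMM), and with p-values adjusted by Benjamini-Hochberg over the whole set of 13843 genes, the log2 fold change (neonate over adult, ± SE) was 1.59 ± 0.20 for Hbb (3.01-fold, adjusted p = 0.00017). It was 1.90 ± 0.23 for Hba-a1 (3.72-fold, adjusted p = 0.00012) and 2.38 ± 0.25 for Hba-a2 (5.20-fold, adjusted p = 6.8e-05). In bulk RNA, more cells of a type and more RNA per cell cannot be told apart, which holds for every gene below.

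**Figure D1:**
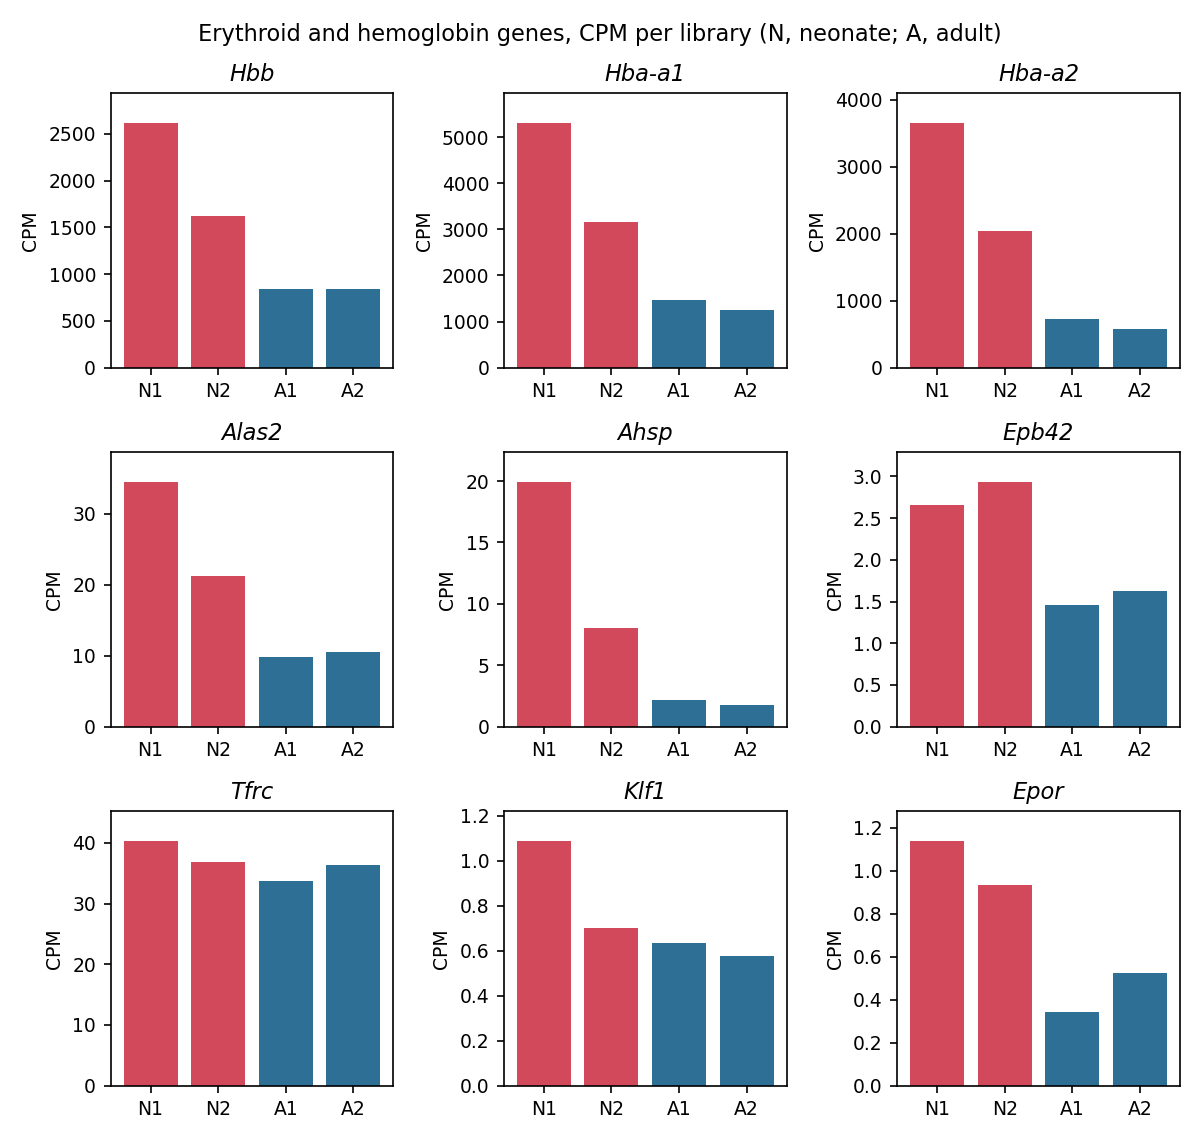
CPM of each of the 9 genes (vertical axes, from 0, each gene on its own scale) in the neonatal libraries N1 and N2 (red) and the adult libraries A1 and A2 (blue), 1 bar per library. The bars of the chain genes, Alas2 and Ahsp are tallest in N1, while those of Tfrc run only from 33.7 to 40.3 CPM.

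The genes that serve hemoglobin making were higher in neonates as well. Alas2, the red cell form of the first enzyme of heme synthesis, was at 34.5 and 21.2 CPM in neonates and at 9.85 and 10.5 CPM in adults (log2 fold change 1.70 ± 0.22, 3.25-fold, adjusted p = 0.00018). Ahsp, the chaperone that holds free alpha chains, was at 19.9 and 8.05 CPM against 2.14 and 1.76 CPM. Its log2 fold change, 3.09 ± 0.42, was the largest of the 7 genes tested (8.53-fold, adjusted p = 0.00024). The ages did not overlap for either gene. The size for Ahsp rested on neonate 1, since without that library it was 4.82-fold.

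Epb42, a protein of the red cell membrane skeleton, was at 2.66 and 2.93 CPM in neonates and at 1.46 and 1.63 CPM in adults. Its log2 fold change was 1.10 ± 0.32 (2.15-fold, adjusted p = 0.014), and neonate 1 was here the lower neonatal library. On library size alone, Epb42 was 1.81-fold higher (adjusted p = 0.043 in edgeR). The call was lost without adult 1 (adjusted p = 0.097) and without adult 2 (adjusted p = 0.065). Tfrc, the transferrin receptor, which brings iron into red cell precursors and into dividing cells of all kinds, was at 40.3 and 36.8 CPM against 33.7 and 36.4 CPM. The ages were thus almost level on this scale, and the call (log2 fold change 0.39 ± 0.10, 1.31-fold, adjusted p = 0.0087) held after TMM but not on library size alone (0.14, adjusted p = 0.24), nor without adult 1 (0.31, adjusted p = 0.093). Over the 13843 genes, the median on the log2 scale was -0.0029 after TMM and -0.25 on library size alone. Mitochondrially encoded genes, which weigh on the library size, held 19.2% and 16.2% of the counts of the neonatal libraries against 9.22% and 9.23% of those of the adult libraries.

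Klf1, a transcription factor of red cell precursors, and Epor, the erythropoietin receptor, did not reach 1 CPM in 2 libraries and were not tested. Klf1 had 43 and 27 counts in neonates and 24 and 21 in adults, which is 1.09, 0.70, 0.64 and 0.58 CPM. The exact Poisson 95% intervals, for counting error, overlapped between neonate 2 (0.46 to 1.02 CPM) and adult 1 (0.41 to 0.95 CPM). Epor had 45 and 36 counts in neonates and 13 and 19 in adults, and its interval in neonate 2 (0.65 to 1.29 CPM) overlapped that in adult 2 (0.32 to 0.82 CPM). With the filter lifted, neither was called (Klf1, log2 fold change 0.78 ± 0.55, adjusted p = 0.29; Epor, 1.48 ± 0.56, adjusted p = 0.058).

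All 7 members tested passed an adjusted p of 0.05 with a higher level in neonates, a call that 31.2% of all genes tested received in this direction and 31.1% in the other. With a fold change of at least 2 as well, 6 of the 7 were called higher, against 7.68% of all genes tested, and none lower, against 13.2%. The median log2 fold change of the 7 was 1.70. On library size alone, 5 of the 7 were called at least 2-fold higher, against 5.09% of all genes tested.

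The chain genes took a measurable share of each library. Hbb, Hba-a1 and Hba-a2 together held 1.16% of the counts in neonate 1 (exact binomial 95% interval 1.15% to 1.16%) and 0.682% in neonate 2 (0.680% to 0.685%). They held 0.302% in adult 1 (0.300% to 0.304%) and 0.267% in adult 2 (0.265% to 0.269%). The mean share was 0.920% ± 0.336 (SD, n = 2) in neonates and 0.285% ± 0.025 (SD, n = 2) in adults, 3.23 times as high. With 2 libraries against 2, an exact two-sided permutation test cannot give a p under 0.333, the value found here. The counting intervals are much narrower than the gap between the neonatal libraries.

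A further 3 hemoglobin chain genes were tested, and all were higher in neonates. Hba-a3, an alpha copy, was at 63.0 and 34.3 CPM in neonates against 11.9 and 8.76 CPM in adults (5.61-fold, adjusted p = 8.6e-05 in edgeR). Hbb-bs, a beta copy, was at 489 and 285 CPM against 92.5 and 85.0 CPM (5.19-fold, adjusted p = 3.6e-05). LOC100134871, which RefSeq lists as a beta-like gene, was at 3387 and 2283 CPM against 820 and 696 CPM (4.45-fold, adjusted p = 2.8e-05). Without neonate 1, these were 3.89-fold for Hba-a3, 3.76-fold for Hbb-bs and 3.53-fold for LOC100134871. With these, the 6 chain rows held 1.55% of neonate 1, 0.943% of neonate 2, 0.395% of adult 1 and 0.346% of adult 2.

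**Figure D2:**
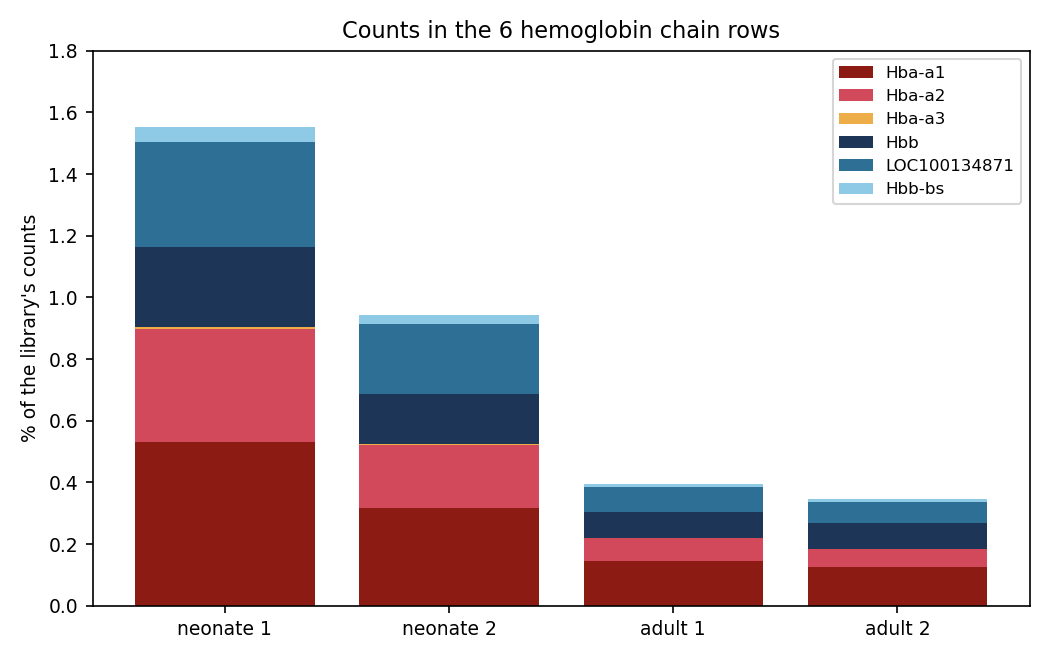
Share of each library's counts (vertical axis, %) in the 6 hemoglobin chain rows, stacked by row, alpha rows in red and yellow and beta rows in blue, 1 bar per library. The bars reach 1.55% and 0.943% in neonates and 0.395% and 0.346% in adults.

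The embryonic chains were near or at the floor. Hbz and Hbe2 were listed at 0 in every library, Hbe1 had 1 count and Hbg1 6 counts, all in neonate 1. Hbq1b, a theta chain, was at 0.61 and 0.57 CPM in neonates and at 0.24 and 0.17 CPM in adults, under the filter.

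The make-up of the chain counts differed with age, a comparison that does not depend on how the libraries were scaled and that was chosen after the values were seen. Hba-a2 had 0.688 and 0.647 counts for each count of Hba-a1 in neonates and 0.496 and 0.465 in adults. Hbb made up 40.3% and 38.7% of the beta counts in neonates and 48.0% and 51.7% in adults, and LOC100134871 made up 52.2% and 54.5% against 46.8% and 43.0%. The ages did not overlap in any of these shares. Hbb, Hba-a1 and Hba-a2 hold fractional values, which arise where reads fit more than one copy, and near-identical copies can share reads in any case, so the split between copies is uncertain. The ratio of alpha to beta counts overlapped between ages, at 1.39 and 1.25 in neonates and 1.25 and 1.14 in adults.

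Set against the chains, the partner genes did not all move alike. Alas2 had 2.22 and 2.25 counts per 1000 chain counts in neonates and 2.50 and 3.04 in adults. Slc4a1, the anion exchanger of the red cell membrane, had 1.89 and 1.53 per 1000 against 1.74 and 1.96, with the ages overlapping. Ahsp had 2.21 and 1.54 counts per 1000 alpha counts in neonates and 0.978 and 0.957 in adults, so that it was higher in neonates even relative to the alpha chains. These ratios are descriptions with no test.

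The neonatal libraries stood apart from each other in the same genes. Neonate 1 was 1.61, 1.68 and 1.79 times as high as neonate 2 for Hbb, Hba-a1 and Hba-a2. The ratio was 1.63 for Alas2, 2.48 for Ahsp and 2.03 for Slc4a1. It was 0.906 for Epb42, 1.10 for Tfrc and 1.22 for Epor. For Klf1 it was 1.55, but the Poisson 95% intervals of neonate 1 (0.79 to 1.47 CPM) and neonate 2 (0.46 to 1.02 CPM) overlapped. A ratio of at least 1.5, a limit set after the values were seen, was found, with 0.1 CPM added to each value, for 5 of the 7 members tested (Hbb, Hba-a1, Hba-a2, Alas2 and Ahsp) and for 3.89% of all genes tested (539 of 13843), whose median ratio was 0.966. With 0.1 CPM added, Klf1, which was not tested, had a ratio of 1.48. The adult libraries differed less in Hbb, Hba-a1, Hba-a2, Alas2 and Ahsp, by ratios of 0.935 to 1.24, and by 1.35 in Hba-a3. Without neonate 1, the fold change was 2.27 for Hbb, 2.73 for Hba-a1, 3.67 for Hba-a2 and 2.44 for Alas2. Without neonate 2 it was 3.81, 4.78, 6.84 and 4.14. These fits hold no spread between neonatal libraries, so only their sizes are given.

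**Figure D3:**
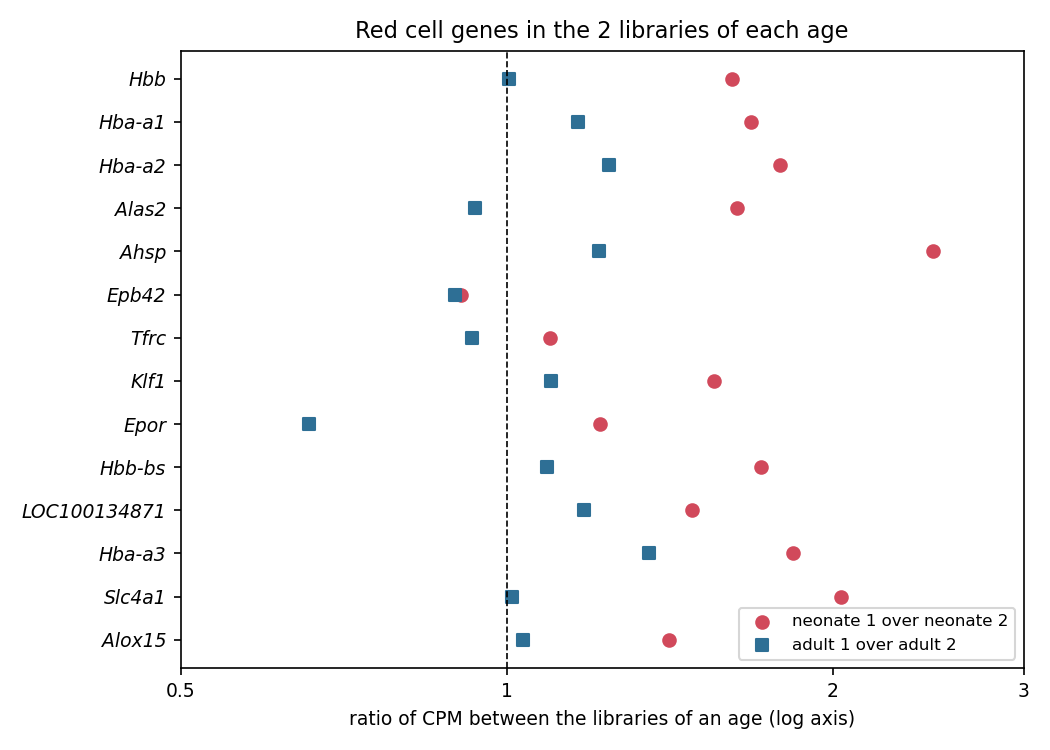
Ratio of CPM between the libraries of an age (horizontal axis, log scale) for the 9 members and 5 other red cell genes, neonate 1 over neonate 2 as red circles and adult 1 over adult 2 as blue squares, with a dashed line at 1. The neonatal ratios of the chain genes, Alas2, Ahsp, Klf1 and Slc4a1 lie between 1.48 and 2.48, and all of these but LOC100134871 are above 1.5.

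Other red cell genes were taken from 7 lists of the globins, membrane, heme synthesis, iron handling, transcription factors, maturation and erythropoietin signalling. Of the 93 genes listed beyond the members, 88 had a row and 66 were tested. Of these, 26 (39.4%) were called higher in neonates, 20 (30.3%) lower and 20 neither, shares near those of all genes tested (31.2% and 31.1%), with a median log2 fold change of 0.13 against -0.0029. On library size alone 16 (24.2%) were higher and 26 (39.4%) lower, against 18.7% and 43.3% of all genes tested, and without adult 2 the number higher was 17. At a fold change of at least 2, 11 (16.7%) were higher and 6 (9.09%) lower, beside 7.68% and 13.2% of all genes tested, and on library size alone 7 (10.6%) and 8 (12.1%), beside 5.09% and 18.4%. Among the 11 were Hba-a3, Hbb-bs and LOC100134871, further chain rows that may share reads with the members. Ngb, a globin known from neurons, was also among them. The globin list holds Ngb and Cygb, which are not particular to red cells.

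Among the membrane genes, 3 of 12 tested beyond Epb42 were higher and 6 lower. With Epb42, the split was 4 higher and 6 lower, and 3 higher and 8 lower on library size alone. Slc4a1 was at 29.3 and 14.4 CPM in neonates against 6.86 and 6.78 CPM (3.82-fold, adjusted p = 0.00053 in edgeR), and without neonate 1 it was 2.47-fold. Rhd, a blood group protein, rose 2.77-fold (adjusted p = 0.0069). Kel, another blood group protein, rose 2.33-fold (adjusted p = 0.038), a call lost on library size alone (adjusted p = 0.083). Aqp1, a water channel of red cells that endothelium also makes, was at 210 and 221 CPM in neonates against 646 and 682 CPM in adults and fell by 1.38 on the log2 scale (adjusted p = 4.6e-06). Sptb, beta spectrin, was at 1.44 and 1.56 CPM against 3.26 and 3.86 CPM and fell (adjusted p = 0.020). Ank1 and Rhag, which are known for the red cell membrane, were under the filter at 0.80 CPM or less in every library.

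In heme synthesis, 3 of 8 enzymes beyond Alas2 were higher and 1 lower. With Alas2, the split was 4 higher and 1 lower, and 3 higher and 2 lower on library size alone. Alad, the second enzyme, was at 32.5 and 37.2 CPM in neonates against 20.1 and 18.4 CPM (2.14-fold, adjusted p = 4.1e-05). Ppox, a late enzyme of the chain, rose 2.02-fold (adjusted p = 5.1e-05), and Urod 1.22-fold (adjusted p = 0.014), a call lost on library size alone. Alas1, the form of the first enzyme that other tissues use, was at 19.3 and 14.1 CPM against 31.9 and 27.9 CPM and fell by 0.59 on the log2 scale (adjusted p = 0.012). The red cell and the general form of this enzyme thus moved in opposite directions, under library size alone too.

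Of the 16 iron genes tested beyond Tfrc, 6 (37.5%) were higher and 7 (43.8%) lower, beside 31.2% and 31.1% of all genes tested. Ftl1, the ferritin light chain that stores iron, was at 222 and 217 CPM in neonates against 111 and 102 CPM (2.43-fold, adjusted p = 6.4e-06). Steap3, the ferrireductase that works with the transferrin receptor in red cell precursors, was at 4.23 and 4.73 CPM against 22.4 and 23.6 CPM and fell by 2.12 on the log2 scale (adjusted p = 8.9e-06). Flvcr1, a heme exporter, fell by 1.58 (adjusted p = 0.025), Hfe, a partner of the transferrin receptor, by 1.31 (adjusted p = 0.00037), and Tf, transferrin, by 1.18 (adjusted p = 2.2e-05). Flvcr1 was at 1.14 and 0.34 CPM in neonates and at 2.67 and 2.62 CPM in adults, so the size of its fall depends on the neonatal library. On library size alone, 2 of the 17 iron genes, Tfrc included, were called higher and 7 lower. Slc40a1, the iron exporter, was listed at 0 in every library.

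Of the 6 transcription factors tested, 4 were called higher in neonates, none 2-fold, the largest being Lmo2, a partner of GATA factors, at 1.48-fold (adjusted p = 0.00067) and Gata2, a GATA factor of early blood cells and other tissues, at 1.46-fold (adjusted p = 0.00096). On library size alone, 3 were called higher. Gata1, Nfe2, Gfi1b and Myb, known for blood precursors, were under the filter. In red cell maturation, 5 of 11 genes were higher and 2 lower, and on library size alone 4 were higher and 4 lower. Alox15, a lipoxygenase known for organelle loss in reticulocytes and also made by other cells, was at 129 and 91.7 CPM in neonates against 53.7 and 51.9 CPM (2.49-fold, adjusted p = 0.00011). In erythropoietin signalling, 1 of 8 genes was higher, Socs2, a feedback inhibitor (1.35-fold, adjusted p = 0.0068), and 3 were lower. On library size alone, Socs2 lost its call (adjusted p = 0.17), and 4 were lower. Stat5b, which carries the signal to the nucleus, was at 8.81 and 9.53 CPM against 30.2 and 38.5 CPM and fell by 1.66 on the log2 scale (adjusted p = 2.0e-05). Epo itself was listed at 0 in every library.

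**Figure D4:**
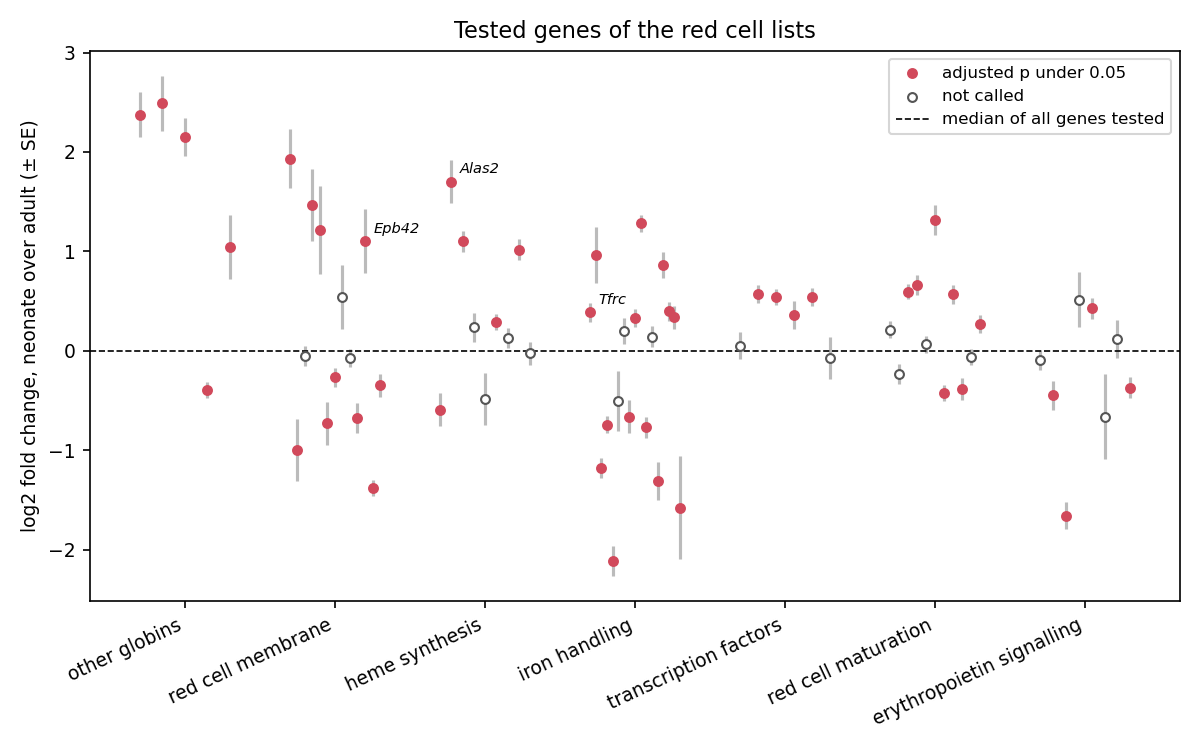
Log2 fold change (vertical axis, neonate over adult, bars are SE of edgeR's fit) of each tested gene in the 7 red cell lists, filled where the adjusted p was under 0.05 and open otherwise, with the median of all genes tested dashed. Alas2, Epb42 and Tfrc are the members among them, and each list has genes on both sides of the line.

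The genes whose profile over the 4 libraries was most like a member's were searched among 11335 tested genes with a mean of at least 5 CPM, as the smallest root mean square difference of centred log2 CPM. For Hbb the nearest were Ddx11 (0.058), Alas2 (0.065), Slc6a2 (0.081), Cdo1 (0.10) and Serp2 (0.12). For Alas2 they were Hbb (0.065), Ddx11 (0.086), Slc6a2 (0.10), Cdo1 (0.11) and Cenpm (0.14). Hbb and Alas2 were each in the other's list, beside genes not known for red cells, such as Slc6a2, the noradrenaline transporter. Among the 5 nearest to Tfrc were Prpf31 (0.0027), Dcaf4 (0.012), RGD1309104 (0.012) and Ppp1r18 (0.015). With only 4 libraries, a close profile is a weak description.

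Markers of other blood and tissue cells are given beside these values. Of 11 neutrophil genes 3 were tested and all 3 were higher in neonates, led by S100a8 (6.64-fold, adjusted p = 0.00066) and S100a9 (3.50-fold, adjusted p = 0.0063), calcium-binding proteins of neutrophils. S100a8 and S100a9 reached 1 CPM only in neonates, so they entered the test through the age where they were higher. Among the untested genes, Csf3r was lower in neonates (0.28 and 0.23 CPM against 0.34 and 1.05 CPM), while Ngp and Mmp8 were higher. The list summed to 23.8 and 19.5 CPM in neonates against 11.1 and 12.2 CPM in adults, with Lcn2 the most abundant and Ltf at 0. Platelet genes summed to 6.57 and 7.42 CPM against 4.57 and 4.31 CPM, with Pf4 the most abundant (2.91-fold, adjusted p = 0.0016) and Gp6 at 0. Without Pf4, the other 9 platelet genes were level, at 2.69 and 2.67 CPM against 2.74 and 2.63 CPM. Lymphocyte genes summed to 3.12 and 5.51 CPM against 1.77 and 1.60 CPM, and the 1 tested, Cd79a of B cells, rose 2.42-fold (adjusted p = 0.035), a call lost on library size alone (adjusted p = 0.075). The T cell genes of that list, Cd3d, Cd3e and Cd3g, summed to 0.46 and 1.09 CPM in neonates and 1.01 and 0.88 CPM in adults, with the ages overlapping. Macrophage genes summed to 68.3 and 80.4 CPM against 148 and 146 CPM, and 5 of 6 were lower, Csf1r, the receptor of a macrophage growth factor, falling by 1.24 on the log2 scale (adjusted p = 2.9e-05) and Adgre1 by 1.08 (adjusted p = 0.0040). Endothelial genes, of which 3 of 6 were lower, summed to 812 and 899 CPM against 1079 and 1124 CPM. The neutrophil sum was also higher in neonate 1 than in neonate 2, through Lcn2 (15.5 against 12.2 CPM) and Mpo (2.94 against 0.29 CPM), while S100a8 (1.67 against 2.16 CPM) and S100a9 (1.75 against 2.52 CPM) were lower in neonate 1.

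Parathyroid genes also differed between the neonatal libraries, neonate 1 being the higher. They summed to 1616 and 197 CPM in neonates and to 0.026 and 0.055 CPM in adults. Pth, parathyroid hormone, was at 1595 and 194 CPM in neonates and listed at 0 in adults. Gcm2, a parathyroid transcription factor, was at 19.9 and 2.83 CPM in neonates and also at 0 in adults. Glia genes summed to 780 CPM in neonate 1 and to between 1579 and 1712 CPM in the other libraries. Of the 6 glia genes, 2 were higher and 2 lower, with Fabp7 higher 7.17-fold (adjusted p = 0.0026) and Gfap falling by 1.96 on the log2 scale (adjusted p = 3.8e-05). Fabp7 was at 1.87 and 1.77 CPM in neonates and at 0.11 and 0.50 CPM in adults, so the size of its rise depends on the adult library. It passed the filter only through the neonates. Of the 8 glomus cell genes, 2 were higher and 3 lower. On library size alone, 1 glia gene was higher and 3 lower, and no glomus cell gene was higher and 4 were lower. The 7 proliferation genes were all called higher in neonates, with Birc5 at 6.27-fold (adjusted p = 7.0e-06), Cdk1 at 6.23-fold (adjusted p = 1.5e-06), Ccna2 at 3.84-fold (adjusted p = 4.0e-06) and Mki67 at 5.09-fold (adjusted p = 1.4e-06), and summed to 548 and 478 CPM against 152 and 154 CPM. Smooth muscle genes, of which 2 of 4 were lower, summed to 548 and 593 CPM against 783 and 927 CPM. The part of any of these cells in the hemoglobin values was not tested.

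**Figure D5:**
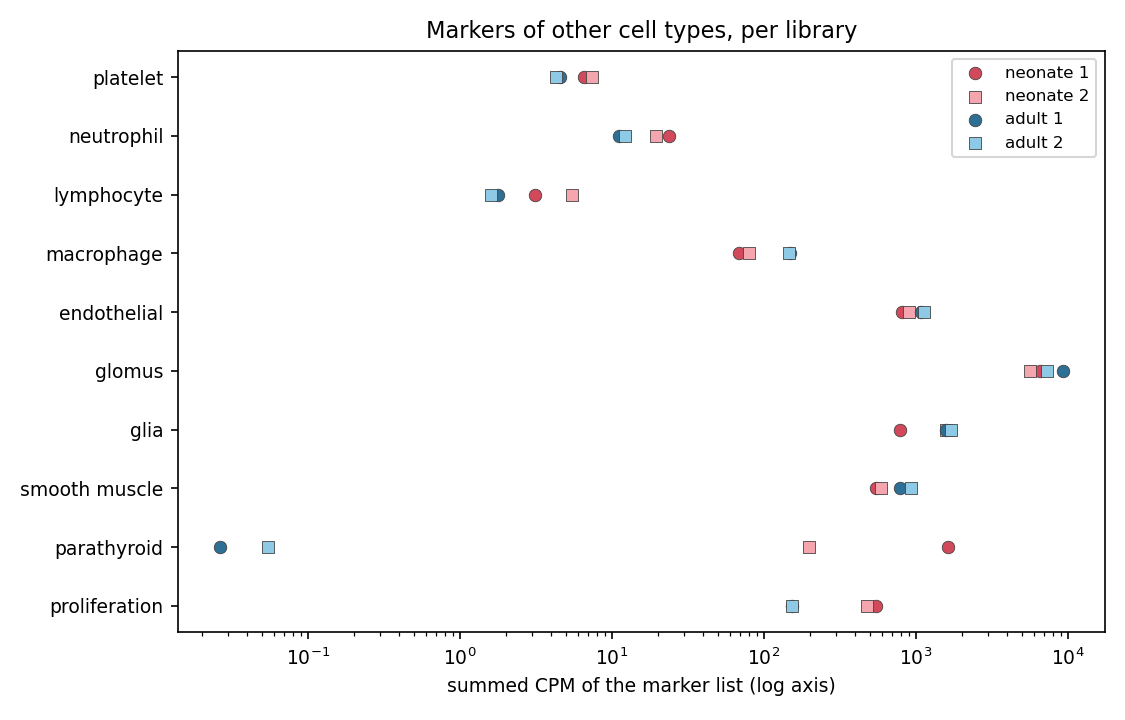
Summed CPM (horizontal axis, log scale) of each list of cell type markers in the 4 libraries, neonates in red and adults in blue, with circles for replicate 1 and squares for replicate 2. The parathyroid list runs from 0.026 CPM in adult 1 to 1616 CPM in neonate 1, and the neutrophil list runs from 11.1 CPM in adult 1 to 23.8 CPM in neonate 1.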

How the data were processed

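The authors trimmed the reads, aligned them with STAR, estimated transcript abundance with Salmon 1.5.2 on Rnor 6.0 and summed it to genes. The deposited values are estimated counts per gene, neither normalized nor filtered, and strand use is not given in the sources used here. Between 5.02% and 6.19% of genes per library have a fractional value.

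Counts were rounded. The 636 genes annotated as other than protein-coding in a RefSeq table of GRCr8 were removed, by symbol, and those that reached 1 CPM in 2 or more libraries were tested (13843). CPM in the text are relative to the library's total, before TMM. Ages were compared with edgeR 4.0.16 (R 4.3.3, TMM, quasi-likelihood test, no covariates, Benjamini-Hochberg). DESeq2 1.42.0 and limma 3.58.1 (voom) were alternatives. The labels call the 2 libraries of an age biological replicates but name no litters or days, so p-values measure the spread between these pools. Their counts differed by 36.7 (neonates) and 17.1 (adults) in chi-square per degree of freedom, above sampling noise.

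The 9 members and the gene lists were chosen with earlier results of these data known. The text names all members, the genes of each list called at a fold change of at least 2, up to 4 per direction, any marker at 0, and the 5 genes nearest in profile to Hbb, Alas2 and Tfrc. Others were chosen after their values were seen, and some genes under this rule are not reported here. On simulated data of 13657 genes with 200 changed, 198 were called with the right sign and 11 unchanged genes were called. The simulation gave every gene the same variation between libraries and changed few genes. In the real data, 4325 genes were called higher and 4300 lower. The simulation thus checks that the steps run and does not measure the error of the calls made here.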

Additional observations from a re-analysis of the deposited data

How the results depend on the processing

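Hbb, Hba-a1, Hba-a2, Alas2 and Ahsp kept their direction under every alternative run. The runs were DESeq2, voom in limma, library size alone, factors by RLE, and TMM without mitochondrial, ribosomal protein and globin genes. The others were no filter, a filter at a mean of 5 CPM, non-coding genes kept, a replicate block and each library left out. These 5 genes kept their call in every run with all 4 libraries. With 1 library left out, the spread is estimated from the other age alone, so calls in those fits are a weak check. The log2 fold change ran from 1.18 to 1.93 for Hbb, from 1.45 to 2.26 for Hba-a1, from 1.87 to 2.77 for Hba-a2, from 1.28 to 2.05 for Alas2 and from 2.27 to 3.64 for Ahsp. Summing all 3 rows of each chain, an alternative chosen after seeing the data, changed no call. Epb42 lost its call in 2 of the leave-one-out fits (1.01 to 1.16 over the 4), and Tfrc in 1 of them (0.30 to 0.49) and on library size alone (0.14). Klf1 and Epor could not be fitted where the filter was kept, and the log2 ratio of their mean CPM ran from 0.21 to 0.84 and from 0.99 to 1.59.

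On library size alone, 2587 genes were called higher in neonates in place of 4325, of which 704 at least 2-fold in place of 1063, and 5997 lower in place of 4300, of which 2549 at least 2-fold in place of 1822. The shares of all genes called became 18.7% higher and 43.3% lower. With this scaling, 16 red cell genes beyond the members were called higher in place of 26, with 7 at least 2-fold in place of 11. With a mean of at least 5 CPM, fewer genes were tested, and 654 were higher and 1169 lower at least 2-fold, with 7 red cell genes beyond the members higher at least 2-fold. With 1 library left out, between 17 and 26 red cell genes were higher. Of counts outside mitochondrially encoded genes, the 3 chain genes held 1.43% in neonate 1, 0.814% in neonate 2, 0.333% in adult 1 and 0.294% in adult 2, a larger move in neonates than in adults.

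The replicate numbers are not said to pair libraries, and deviations of same-numbered libraries were uncorrelated across genes (r = -0.015). The replicate block gave 4542 genes higher and 4551 lower and kept all 7 members called. Depth limits Klf1 and Epor, at 13 to 45 counts per library.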

Other observations

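Globins outside the red cell were also measured. Cygb, cytoglobin, which many tissues make, was at 111 and 125 CPM in the neonatal libraries and at 191 and 177 CPM in the adult libraries, and fell by 0.39 on the log2 scale (adjusted p = 0.0029 in edgeR), the opposite direction to the hemoglobin chains, under library size alone too. Ngb, neuroglobin, known from neurons, was at 6.99 and 3.97 CPM in neonates against 3.07 and 3.28 CPM in adults (2.06-fold, adjusted p = 0.019), a call lost on library size alone (adjusted p = 0.055). Mb, myoglobin of muscle, was under the filter at 0.55 CPM or less in every library.

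Mpo, an enzyme of early neutrophil precursors, had 116 counts in neonate 1, 11 in neonate 2, 2 in adult 1 and 5 in adult 2, and was under the filter. Cd79b, a gene of B cells, was at 0.71 and 1.32 CPM in neonates and at or under 0.28 CPM in adults. These genes were chosen after their values were seen.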
